A study of Mus musculus with 6 samples.

Results

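Respiratory chain assembly factors are the proteins that help to build the complexes of oxidative phosphorylation in the inner mitochondrial membrane without staying in the finished enzymes. They were compared here between hepatocytes with floxed Xbp1 and hepatocytes in which Xbp1 had been deleted. The members were taken by name from the deposited gene table. They were the genes whose symbols begin with Ndufaf, Coa, Uqcc or Atpaf and a digit, Cox10 to Cox19, Cox20, Sco1 and Sco2, together with Surf1, Bcs1l, Lyrm7, Ttc19, Foxred1, Nubpl, Timmdc1, Ecsit and Acad9. This gave 39 of the 54532 genes in the table, of which 38 are protein-coding. The other, Cox20b, is listed as a processed pseudogene. Of the 39, 36 passed the filter on low counts and were tested, 13 of them factors of complex I, 6 of complex III, 15 of complex IV and 2 of complex V (ATP synthase).

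The samples were primary mouse hepatocytes from C57BL/6 mice aged 32 to 34 weeks, all fed a high-fat diet for 26 weeks. The control group, XCON, had the genotype Xbp1FL/FL (3 libraries), and the other, XCKO, was Xbp1ΔHep, with Xbp1 removed in hepatocytes (3 libraries). The sources used here name no driver of the deletion, and no animal is named for a single library, so each p-value reflects spread among libraries only, and that spread may be technical. XBP1 is a transcription factor that is switched on when unfolded proteins build up in the endoplasmic reticulum.

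A respiratory complex is put together from many subunits, most made in the cytosol and a few inside the mitochondrion, and from heme, copper and iron-sulfur groups that react readily when free. Assembly factors hold unfinished modules, insert the metal groups, modify single residues and control the translation of mitochondrially encoded subunits. Loss of single factors causes inherited deficiencies of one complex, and the liver is among the organs affected by some of them, as with BCS1L and SCO1.

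Total counts were 23919355 to 26502456 in XCON and 26477489 to 27240079 in XCKO, and the 39 genes took 0.0485% to 0.0634% of them. Mitochondrially encoded transcripts made up 22.81% of counts in XCON 1 and 8.99% to 13.08% in the other 5 libraries. Xbp1, the check of the labels, was at 171 to 319 CPM (counts per library total, TMM-scaled) in XCON and 39.3 to 67.4 CPM in XCKO, a log2 fold change of −2.24 ± 0.29 (SE, adjusted p = 0.0084). Of 13 hepatocyte markers in the table none passed the test, but the log2 fold change was above 0 in 12 and the median was 0.66. Their summed level was 78300 to 109000 CPM in XCON and 109000 to 143000 CPM in XCKO, with Alb at 45300 to 85300 CPM over the 6 libraries. Markers of other cells were present: the 12 macrophage and Kupffer cell genes summed to 1420 to 2780 CPM in XCON and 502 to 1410 CPM in XCKO (1 lower, Cd5l most abundant), the 10 stellate cell genes to 318 to 674 and 128 to 319 CPM (3 lower, Dcn most abundant), the 10 endothelial genes to 621 to 640 and 461 to 921 CPM (0 past the test, Ptprb most abundant) and the 7 cholangiocyte genes to 257 to 592 and 83.4 to 163 CPM (1 lower, Spp1 most abundant). The most abundant of the next lists were Ptprc, Csf3r, Hbb-bs and Cfd. The 9 lymphocyte genes summed to 56.4 to 120 and 16.5 to 53.5 CPM, the 6 neutrophil genes to 14.9 to 35.2 and 5.24 to 78.6 CPM, the 6 erythroid genes to 42.3 to 70 and 77.4 to 940 CPM and the 5 adipocyte genes to 0.98 to 5.54 and 54.7 to 226 CPM. Of these 4 lists, Cfd alone passed, as higher, and Lep was at 0 in all 6 libraries. Cfd was the only adipocyte gene tested. It ran from 0.98 to 226 CPM over the 6 libraries, so the lowest and highest adipocyte sums were those of Cfd alone. In the macrophage, stellate, cholangiocyte and lymphocyte lists no gene had a log2 fold change above 0, and the medians were −0.9, −1.26, −1.74 and −1.48. Values above 0 were found for 5 of 5 tested erythroid genes (median 4.45), 3 of 5 neutrophil genes (1.84) and 6 of 10 endothelial genes (0.09). In bulk RNA, a change in the number of cells of a type and a change in RNA per cell cannot be told apart. The part of these marker levels in the results below was not tested.

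Of the 36 tested assembly factors, 10 were higher in XCKO, 0 were lower and 26 did not pass (edgeR quasi-likelihood F test, p adjusted over all tested genes, threshold 0.05). This was 27.8% of the members, beside 5.21% of all 14873 tested genes called higher, 4.05% called lower and 9.27% called in either direction. The log2 fold change was above 0 in 34 of 36 members, beside 46.5% of all tested genes, and the median was 0.47, beside −0.05 over all tested genes and 0.66 over the hepatocyte markers. The 10 were Timmdc1, Ecsit and Ndufaf8 for complex I, Uqcc1, Uqcc2 and Uqcc3 for complex III, and Cox14, Coa3, Coa6 and Coa7 for complex IV. Their rises were 1.6-fold to 2.54-fold, and 3 were over 2-fold.

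The 3 XCKO libraries lay above all 3 XCON libraries in 26 of 36 members, beside 17.6% of all tested genes, and below them in 0, beside 18.1%. The median member stood at −0.01, 0 and 0.06 on the log2 scale in XCON 1, 2 and 3 relative to the XCON mean of each gene. It stood at 0.30, 0.57 and 0.68 in XCKO 1, 2 and 3. XCKO 3 was the highest library for 22 of the 36 members and XCON 1 the lowest for 17.

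The number of members called changed when single libraries were left out, as did that of all genes. It was 3 without XCON 1, 7 without XCON 2, 4 without XCON 3, 8 without XCKO 1, 8 without XCKO 2 and 2 without XCKO 3, and no member was called lower in any of these fits. As shares, 5.56% to 22.2% of the tested members were higher in these 6 fits, beside 1.15% to 3.38% of all tested genes, with the lowest share of both without XCKO 3. Cox14 passed in all 6. Coa3 and Coa6 passed in 5 of 6, with adjusted p of 0.054 without XCKO 3 and 0.051 without XCON 1. Timmdc1 and Ecsit passed in 4, Uqcc1 in 3, Ndufaf8 and Uqcc3 in 2, and Uqcc2 and Coa7 in 0, where the largest adjusted p was 0.12 for each. Scaling by library totals alone moved the median of all tested genes from −0.05 to −0.31. It left 6 members higher (16.7%) and made 1 lower, Cox19, beside 2.19% of all tested genes higher and 13.7% lower. The members' median of 0.20 then lay 0.51 above that of all genes, as against 0.52 with TMM scaling.

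**Figure D1:**
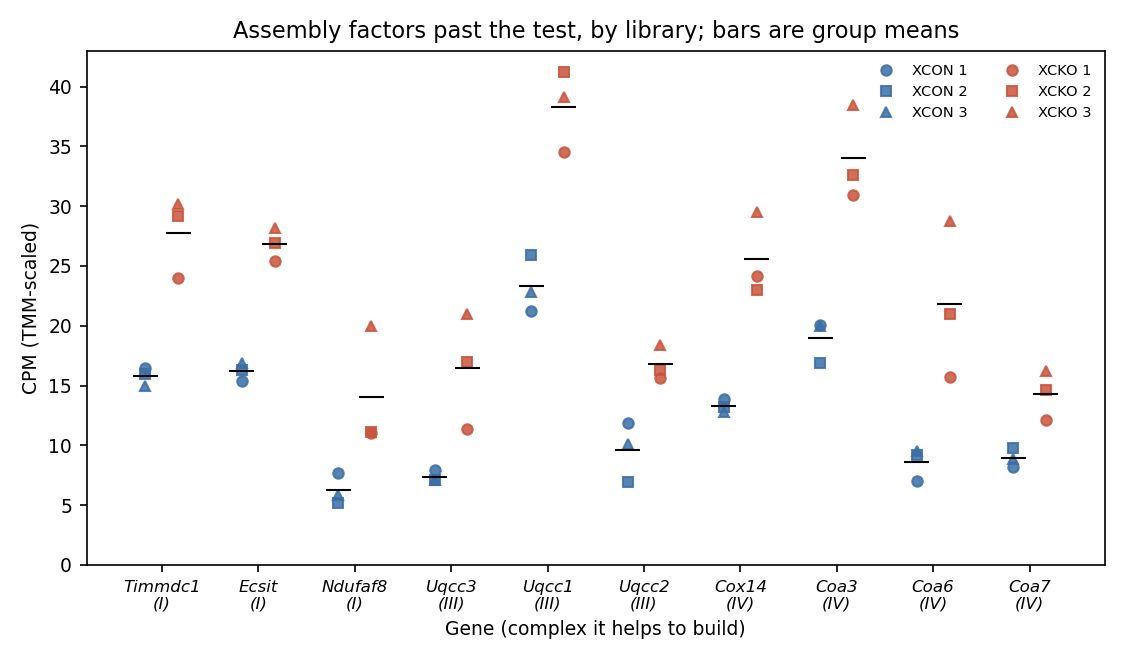
CPM of the 10 assembly factors that passed the test, per library (XCON blue, XCKO red, symbols for replicates 1 to 3, horizontal bars for group means; the complex is in brackets). All 3 XCKO points lie above all 3 XCON points for each gene, and Coa6 runs from 15.7 to 28.8 CPM within XCKO.

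Promoter sequences were looked up for the members because they moved in 1 direction. RefSeq promoters (GRCm38.p6, 250 bases before to 50 after the start) were found for 31 of the 36 tested members, 9 of them called. The entry nearest to the deposited gene start was taken, with no limit on distance. It lay 6252 bases away for Cox19, 1423 for Atpaf2 and 319 for Lyrm7. These windows may not be the promoters of the counted transcripts, and they stay in the counts below. Entries were missing for Acad9, Coa6, Cox17, Cox18 and Ndufaf6. Of 7 motifs searched on both strands, CCGGAAG, the core bound by ETS factors such as GABPA, occurred in 12 of 31 members (38.7%), beside 17.6% of 10726 tested genes with a promoter and 8.86% of all promoters in the table. The 12 had a median log2 fold change of 0.52, with 4 called, and the 19 without it 0.45, with 5 called. The NRF1 motif occurred in 2 of 31 (6.45%, beside 1.98% of tested genes and 0.971% of all promoters), in Ndufaf4 and Ndufaf5. AAGATGGC, a YY1 motif, occurred in 4 (12.9%, beside 4.48% and 2.75%), and TGACGTCA, the cyclic AMP response element, in 3 (9.68%, beside 3.1% and 1.79%). CCAAT, the NF-Y box, occurred in 17 (54.8%, beside 38.7% and 37.4%), and TCAAGGTCA, an estrogen-related receptor motif, in 0 (beside 0.261% and 0.423%). TGACGTG holds the ACGT core of XBP1 binding elements and shares its first 6 letters with TGACGTCA. It occurred in 2 of 31 members (6.45%, beside 2.79% of tested genes and 2.01% of all promoters). These were Bcs1l and Foxred1, neither of which passed the test. A match shows only that these letters lie in the window.

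The 250 bases before the start are shown for Timmdc1 and Ndufaf8, 2 of the 4 called members with CCGGAAG, and for Bcs1l, which holds TGACGTG. Capitals mark CCGGAAG or its reverse complement in Timmdc1 (chr16:38522664-38522913, minus strand) and Ndufaf8 (chr11:120098684-120098933, plus strand), and TGACGTG in Bcs1l (chr1:74588039-74588288, plus strand), whose own CCGGAAG is left in lower case.
Timmdc1: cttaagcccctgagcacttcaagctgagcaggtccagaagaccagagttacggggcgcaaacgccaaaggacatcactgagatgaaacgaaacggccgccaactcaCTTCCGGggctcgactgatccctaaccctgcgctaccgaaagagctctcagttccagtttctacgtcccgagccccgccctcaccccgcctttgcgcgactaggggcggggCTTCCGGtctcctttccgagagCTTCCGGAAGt
Ndufaf8: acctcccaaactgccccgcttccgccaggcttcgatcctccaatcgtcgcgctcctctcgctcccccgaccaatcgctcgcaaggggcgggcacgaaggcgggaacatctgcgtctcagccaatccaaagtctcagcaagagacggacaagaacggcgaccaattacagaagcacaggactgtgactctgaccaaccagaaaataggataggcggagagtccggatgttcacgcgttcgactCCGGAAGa
Bcs1l: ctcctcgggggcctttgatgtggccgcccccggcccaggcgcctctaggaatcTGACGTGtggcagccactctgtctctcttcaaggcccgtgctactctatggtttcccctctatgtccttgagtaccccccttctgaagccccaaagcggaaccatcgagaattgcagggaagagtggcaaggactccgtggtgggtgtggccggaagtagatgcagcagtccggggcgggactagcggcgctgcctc
Timmdc1 holds 4 such matches in this stretch, 2 of which overlap as the palindrome next to the start, and Ndufaf8 holds 1.

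Complex I, the NADH dehydrogenase, is assembled from separate modules, and 3 of its 13 factors were called higher. Timmdc1 is a membrane protein that anchors the module around the mitochondrially encoded subunit ND1 (mm10 chromosome 16, 38498347 to 38522663, minus strand). It was at 16.5, 16 and 15 CPM in XCON 1, 2 and 3 and at 24, 29.2 and 30.2 CPM in XCKO 1, 2 and 3. The groups did not overlap, and the lowest XCKO library was XCKO 1. Its log2 fold change was 0.81 ± 0.14 (SE, adjusted p = 0.017). Ecsit (chromosome 9, 22072246 to 22085438, minus strand) belongs to the core complex that assembles the membrane arm together with Ndufaf1 and Acad9. It was at 15.4, 16.3 and 16.9 CPM in XCON and 25.4, 26.9 and 28.2 CPM in XCKO, with little spread within either group. The log2 fold change was 0.73 ± 0.13 (SE, adjusted p = 0.017). Annotated exons of the antisense gene Gm16845 cover 24% of its exonic bases, and its counts are uncertain because no source used here says whether counting used strand.

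The 2 partners of Ecsit named above, Ndufaf1 and Acad9, did not pass. Ndufaf1 was at 13 ± 1.12 CPM in XCON and 17.1 ± 1.83 CPM in XCKO (SD, n = 3), and Acad9, which is also an acyl-CoA dehydrogenase, at 21.9 ± 3.04 and 29.6 ± 2.09 CPM (SD, n = 3). Their log2 fold changes were 0.40 ± 0.15 and 0.43 ± 0.15 (SE), and the adjusted p were 0.12 and 0.093, and in both genes the groups did not overlap.

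Ndufaf8 (chromosome 11, 120098928 to 120100705, plus strand) is the partner of Ndufaf5, which hydroxylates an arginine of the subunit NDUFS7. Ndufaf8 was at 7.7, 5.17 and 5.85 CPM in XCON and at 11, 11.1 and 20 CPM in XCKO. XCKO 3 stood well above the other XCKO libraries. The log2 fold change was 1.17 ± 0.28 (SE, adjusted p = 0.035). Ndufaf5 itself was at 2.46, 2.53 and 2.67 CPM in XCON and 2.59, 3.34 and 3.67 CPM in XCKO. Its groups overlapped, and the log2 fold change of 0.32 ± 0.27 (SE) did not pass (adjusted p = 0.46). The difference between the partners was not tested.

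Among the remaining complex I factors, Ndufaf2, a relative of the subunit Ndufa12 that acts late in assembly, had a log2 fold change of 0.92 ± 0.28 (SE, adjusted p = 0.072). Nubpl, which delivers iron-sulfur clusters, had 0.71 ± 0.25 (SE, adjusted p = 0.097). The early factors Ndufaf3, Ndufaf4 and Ndufaf6 had log2 fold changes of 0.59, 0.45 and 0.49, the methyltransferase gene Ndufaf7 0.28 and Foxred1, an FAD-dependent oxidoreductase, 0.16. None of these 7 passed. Exons of the gene B230220B15Rik, on the other strand, cover 65.6% of the exonic bases of Ndufaf2, so its counts are uncertain.

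Complex III, the cytochrome bc1 complex, has 6 tested factors. The 3 that handle newly made cytochrome b, its mitochondrially encoded subunit, were all called higher. The 3 that handle the Rieske iron-sulfur protein did not pass. Uqcc1 (chromosome 2, 155846894 to 155930310, minus strand), which binds new cytochrome b together with Uqcc2, was at 21.2, 25.9 and 22.8 CPM in XCON and 34.5, 41.2 and 39.1 CPM in XCKO. Every XCKO library was above every XCON library, and the log2 fold change was 0.72 ± 0.14 (SE, adjusted p = 0.023). Uqcc2 (chromosome 17, 27122663 to 27133916, minus strand) was at 11.9, 6.93 and 10.1 CPM in XCON and 15.6, 16.3 and 18.4 CPM in XCKO. XCON 2 was the low library, and the log2 fold change was 0.80 ± 0.21 (SE, adjusted p = 0.047). Uqcc3 (chromosome 19, 8880016 to 8880933, minus strand), which acts on cytochrome b after these partners, was at 7.93, 7.11 and 7.13 CPM in XCON and 11.4, 17 and 21 CPM in XCKO. The XCON libraries were close together and the XCKO libraries spread widely. The log2 fold change was 1.15 ± 0.23 (SE, adjusted p = 0.022).

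Of the Rieske factors, Bcs1l, the ATPase that moves the folded protein across the membrane, was at 6.77, 8.32 and 8.35 CPM in XCON and 9.19, 10.1 and 9.99 CPM in XCKO. The groups were close but did not overlap, and the log2 fold change was 0.32 ± 0.17 (SE, adjusted p = 0.26). Ttc19, which helps to clear fragments of the Rieske protein, had 0.39 ± 0.15 (SE, adjusted p = 0.13). Lyrm7, the chaperone of the Rieske protein before insertion, had the lowest level per length of the tested members. It was at 0.367 FPKM over all 6 libraries, from 19 to 49 reads in each, and its log2 fold change of 0.29 ± 0.44 (SE) did not pass. Whether the cytochrome b factors and the Rieske factors differed in their response was not tested.

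**Figure D2:**
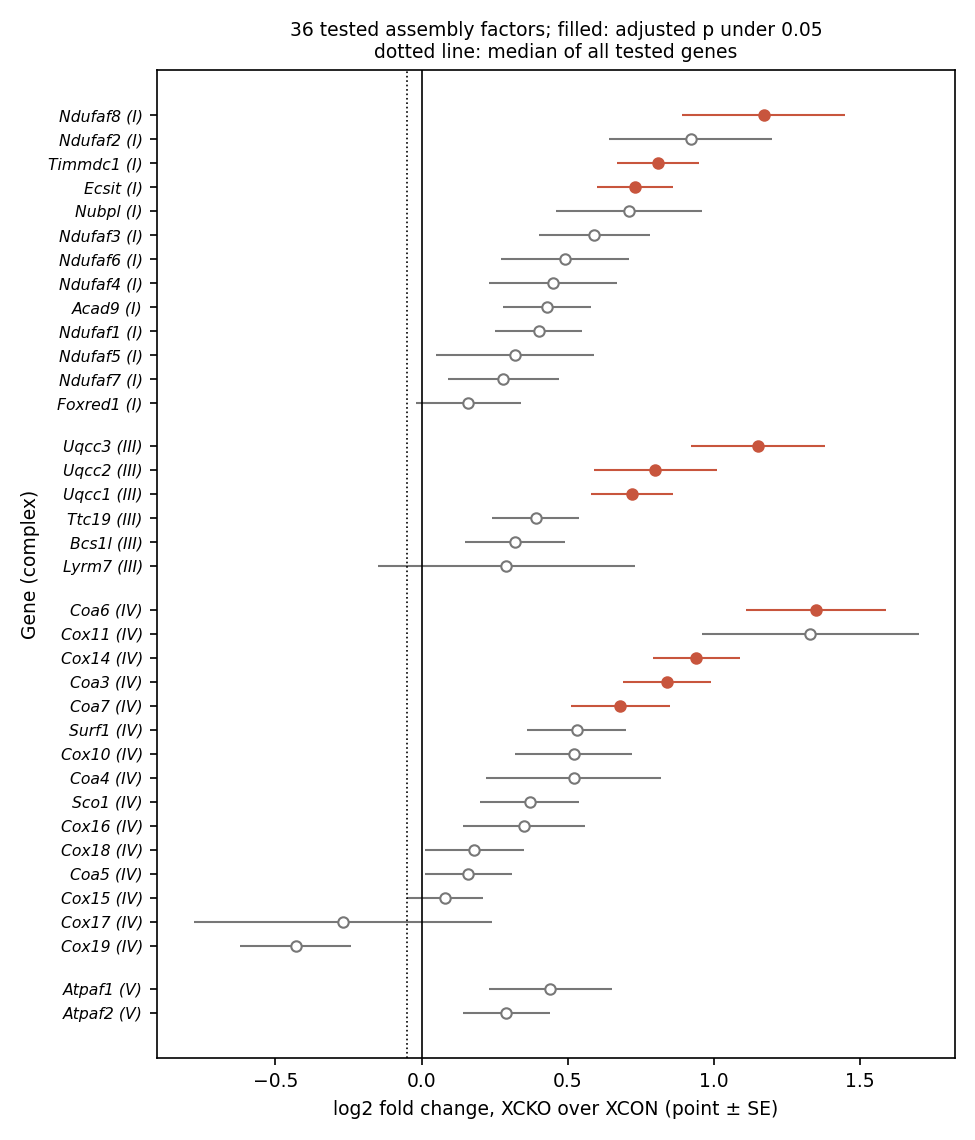
Log2 fold change (XCKO over XCON) with its standard error for the 36 tested assembly factors, grouped by complex, with filled points for those past the test and a dotted line at the median of all tested genes. Points lie to the right of 0 for 34 genes and to the left for Cox17 and Cox19.

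Complex IV, cytochrome c oxidase, has the most factors, and 4 of its 15 tested members were called higher. Cox14 and Coa3 bind the newly made mitochondrially encoded subunit COX1 and link its translation to assembly. Cox14 (chromosome 15, 99725618 to 99728136, plus strand) was at 13.9, 13.2 and 12.8 CPM in XCON and 24.2, 23 and 29.5 CPM in XCKO. Coa3 (chromosome 11, 101277968 to 101279114, minus strand) was at 20.1, 16.9 and 20 CPM in XCON and 30.9, 32.6 and 38.5 CPM in XCKO. In both genes the groups lay well apart and XCKO 3 was highest. The log2 fold changes were 0.94 ± 0.15 and 0.84 ± 0.15 (SE), and the adjusted p were 0.012 and 0.017. Coa3 was also the tested member with the highest level per length, at 20.9 ± 2.31 FPKM in XCON and 38.4 ± 5.1 FPKM in XCKO (SD, n = 3). Surf1, a factor of heme a insertion into COX1, was at 22.9, 23.2 and 17.8 CPM in XCON and 25.9, 31.7 and 34.4 CPM in XCKO. Its groups did not overlap, and the log2 fold change of 0.53 ± 0.17 (SE) had an adjusted p of 0.078.

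Copper for complex IV passes along a chain of small proteins of the intermembrane space. Coa6 (chromosome 8, 126422515 to 126425433, plus strand), which acts with the SCO proteins at the copper site of COX2, had the largest fold change of all tested members. It was at 7, 9.2 and 9.5 CPM in XCON and 15.7, 21 and 28.8 CPM in XCKO. The XCKO libraries spread widely but all lay above XCON, and the log2 fold change was 1.35 ± 0.24 (SE, adjusted p = 0.017). Exons of Tarbp1 on the other strand cover 14.1% of the exonic bases of Coa6 and those of Cntd1 9.26% of Coa3, so a part of these counts is uncertain. Cox11, which delivers copper to COX1, was at 1.27, 3.74 and 2.13 CPM in XCON and 6.48, 6.09 and 5.4 CPM in XCKO. The groups did not overlap, with XCON 1 lowest. The log2 fold change was 1.33 ± 0.37 (SE) and missed the threshold with an adjusted p of 0.055, and Tom1l1 covers 48.3% of its exonic bases on the other strand.

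The other copper factors showed smaller differences or none in this direction. Sco1 had a log2 fold change of 0.37 ± 0.17 (SE, adjusted p = 0.18). Cox17, the copper chaperone that supplies Cox11 and the SCO proteins, was at 4.77, 4.77 and 1.45 CPM in XCON and 2.67, 4.62 and 1.82 CPM in XCKO. The groups overlapped fully, and the log2 fold change was −0.27 ± 0.51 (SE, adjusted p = 0.75). Cox19, a relative of Cox17, was at 40.8, 29.9 and 51 CPM in XCON and 30.9, 28.5 and 30.7 CPM in XCKO. The XCON libraries varied widely and overlapped the narrow XCKO range. The log2 fold change was −0.43 ± 0.19 (SE, adjusted p = 0.17).

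Coa7 (chromosome 4, 108328140 to 108341544, plus strand), a cysteine-rich protein of the intermembrane space needed for complex IV, was at 8.2, 9.82 and 8.86 CPM in XCON and 12.1, 14.6 and 16.2 CPM in XCKO. The groups did not overlap, and the log2 fold change was 0.68 ± 0.17 (SE, adjusted p = 0.043). The heme a enzymes did not pass: Cox10, which makes heme o, had a log2 fold change of 0.52 ± 0.20 (SE), and Cox15, which turns it into heme a, 0.08 ± 0.13 (SE). Nor did Coa4 (0.52), Coa5 (0.16), Cox16 (0.35) or Cox18 (0.18), where brackets give log2 fold changes. Cox16 and Cox18 act on the subunit COX2. Of the exonic bases of Cox16, 56.8% are also exons of Gm20498 on the same strand, so its counts are uncertain.

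Complex V has 2 factors, which keep the subunits of its catalytic F1 part from aggregating. Atpaf1, for the beta subunit, was at 3.92, 4.14 and 4.67 CPM in XCON and 5.51, 6.13 and 5.62 CPM in XCKO. Atpaf2, for the alpha subunit, was at 12, 13.7 and 14.1 CPM in XCON and 14.7, 16.2 and 17.8 CPM in XCKO. The groups did not overlap in either gene, and neither passed. The log2 fold changes were 0.44 ± 0.21 and 0.29 ± 0.15 (SE), and the adjusted p were 0.2 and 0.22.

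The 3 members that did not pass the filter on low counts had few or no reads. Sco2, the second copper factor of its kind, had 0 reads in all 6 libraries, which allows up to 0.13 CPM for counting error only (3 counts in XCKO 3, on the TMM scale). Exons of Tymp and Ncaph2 cover 91.8% of its exonic bases, so its count and this limit are uncertain. Cox20, a chaperone of COX2, had 1 to 10 reads per library. Exons of Hnrnpu on the other strand cover 91.1% of its exonic bases, so its counts are uncertain. The pseudogene Cox20b had 0 to 2 reads.

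The members' differences were larger in shorter genes. All 6 tested members under 1000 bases in the deposited table were called higher, with a median log2 fold change of 1.05. They were Cox14, Coa6, Uqcc3, Ndufaf8, Uqcc2 and Coa3, at 723 to 886 bases. Of the 30 longer members, 4 were called higher, and the median over the 30 was 0.42. The limit of 1000 bases was chosen after the values were seen. Among all tested genes, 10.4% of those under 1000 bases were called higher and 4.81% of the longer ones, and among the 300 protein-coding genes under 1000 bases it was 25.7%. Across the 36 members, length and log2 fold change had a Spearman correlation of −0.60, and across all tested genes of −0.22. Genes share these 6 libraries, so the correlations are descriptions. By decile of length, the median of all tested genes was 0.21 for the shortest genes and −0.25 for the longest, and 34 of 36 members lay above the median of their own decile.

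With a correction for length in each library, 9 members were called higher and 0 lower. The 9 were 25% of the tested members, beside 4.42% of all tested genes called higher and 2.88% called lower with this correction. Of the 9, 8 had also passed without it. Ndufaf8 (adjusted p = 0.054) and Uqcc2 (adjusted p = 0.1) no longer passed, and Acad9 did. Coa6 then had a log2 fold change of 1.07 ± 0.22 (SE), Cox14 0.68 ± 0.13 and Uqcc1 0.82 ± 0.13, and the members' median was 0.43.

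**Figure D3:**
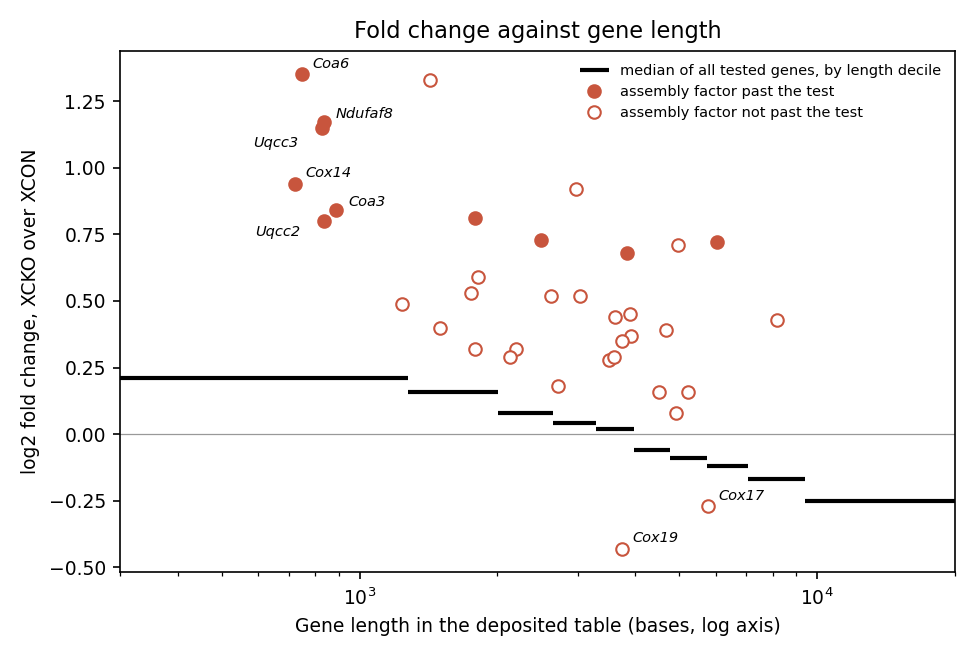
Log2 fold change of the 36 tested members (circles, filled where past the test) against gene length (bases, log axis), with black bars for the median of all tested genes in each length decile. The 6 shortest members are filled and lie at 0.80 or higher, and only Cox17 and Cox19 lie below the bar of their decile.

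Other genes of the same pathway were described by counts, and no test was run between lists. Of 28 tested assembly factors outside the naming rule, 7 were higher (25%, beside 5.21% of all tested genes) and 0 lower. The median log2 fold change of this list was 0.53. The count of 7 was 4 without XCON 1 or XCON 2 and 3 without XCKO 3. Among the 7 were Higd1a and Higd2a, which associate with complexes III and IV, at 1.11 ± 0.16 and 0.93 ± 0.14 (SE), and Rab5if at 1.06 ± 0.17 (SE). Of the 79 tested genes listed as nuclear-encoded subunits of complexes I to V, 61 were higher (77.2%) and 0 lower, with a median of 0.84. The complex V list held Atpif1, an inhibitor of the enzyme, and the complex IV list held Cox7a2l, which links complexes. These are not subunits in the strict sense. The count of 61 was 32 without XCON 1, 28 without XCON 2, 38 without XCON 3, 40 without XCKO 1, 48 without XCKO 2 and 23 without XCKO 3, with 0 lower in each. Of all tested genes, 1.15% to 3.38% were higher in these fits. The count was 34 with library totals alone, 26 with the replicate block and 12 with the length correction and replicate block. Of all tested genes, 2.19%, 1.48% and 0.847% were then called higher. Subunit genes were counted more deeply than the assembly factors, with a median of 1730 reads per gene and library against 301, and they were shorter, with a median length of 1675 against 2844 bases. The part of depth and length in the called shares was not tested. Within complex III, for example, 9 of 9 subunit genes passed, led by Uqcr11 at 1.67 ± 0.15 (SE), beside 3 of 6 assembly factors. For complex IV it was 9 of 12 subunit genes, among them Cox5b at 0.95 ± 0.13 (SE), beside 4 of 15. For complex I it was 28 of 36, among them Ndufb6 at 1.66 ± 0.15 (SE), beside 3 of 13. For complex V it was 12 of 18, among them Atp5k at 2.28 ± 0.20 (SE), beside 0 of 2. Complex II, for which the naming rule takes no factor, had 3 of 4 subunit genes higher, among them Sdhd at 0.92 ± 0.17 (SE). Without XCKO 3, complexes I to V had 13, 0, 2, 4 and 4 subunit genes higher.

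Genes that supply the cofactors had 2 of 17 higher (11.8%) for iron-sulfur clusters (Nfu1, 0.94 ± 0.13, and Glrx5, 1.35 ± 0.19, SE) and 3 of 14 (21.4%) for copper and heme. In either list 0 were lower, beside 5.21% of all tested genes called higher and 4.05% called lower. The copper chaperone of superoxide dismutase, Ccs, rose by 0.99 ± 0.17 (SE), and Atox1, which carries copper to the secretory pathway, by 0.76 ± 0.17 (SE), and Urod, of heme synthesis, by 0.51 ± 0.14 (SE). The medians of the 2 lists were 0.47 and 0.41. For copper and heme the count of 3 was 0 without XCKO 3, 2 without XCON 1 and 1 without any other single library, and with library totals alone it was 1 higher and 1 lower. Of 13 tested regulators of respiratory chain genes, 1 was higher (7.69%, near the 5.21% of all tested genes) and 0 lower. This was Esrra, the estrogen-related receptor alpha, at 19.7 ± 5.47 CPM in XCON and 43.6 ± 7.94 CPM in XCKO (SD, n = 3), and its log2 difference was 1.15 ± 0.22 (SE, adjusted p = 0.021). Its call was lost without XCON 1, XCON 3 or XCKO 3. With library totals alone, 1 regulator was called lower. The median of this list was 0.12.

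The authors' deposited table called 13 of 38 members higher and 0 lower at an adjusted p of 0.05, beside 5.51% of its 24709 genes called higher and 4.66% called lower. The 13 held all 10 named above, and the other 3 were Cox11, Ndufaf2 and Surf1. For Coa6 the authors' deposited table gave a log2 fold change of 1.39 and for Cox14 0.98.

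**Figure D4:**
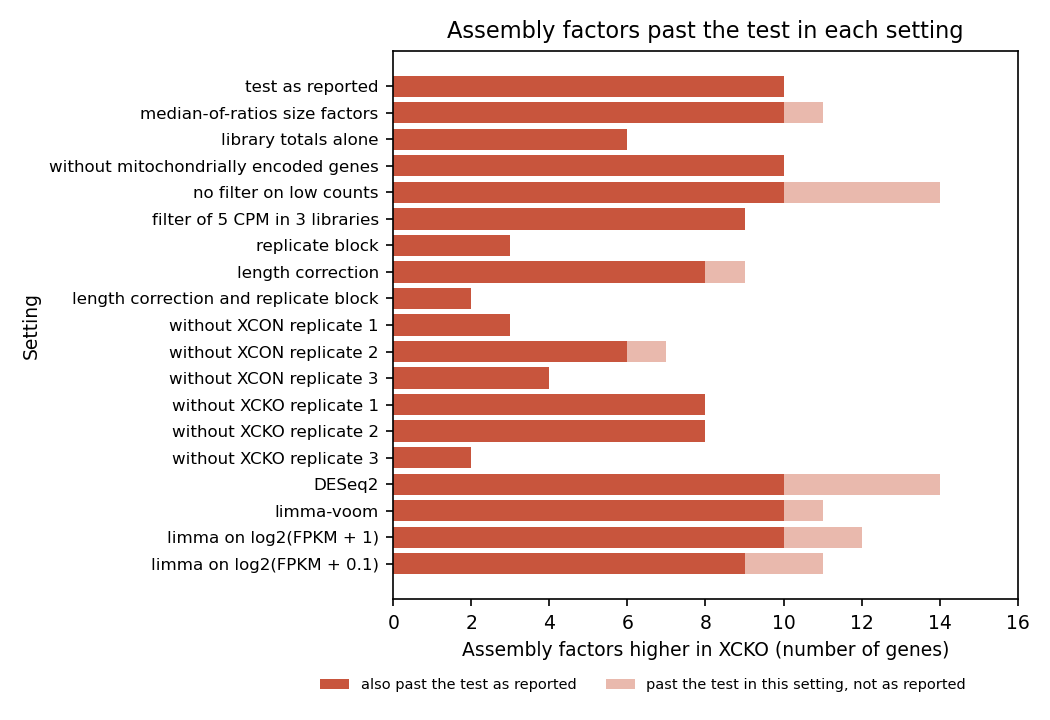
Number of assembly factors called higher in XCKO under each processing setting (bars from 0), split into those among the 10 reported and others. The shortest bars, at 2, are those without XCKO replicate 3 and with length correction and replicate block, and the longest, at 14, are those with DESeq2 and with no filter on low counts. Of all tested genes, 1.15% and 0.847% were called higher at the shortest bars and 9.51% and 4.45% at the longest, in the order named.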

How the data were processed

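RNA of 6 hepatocyte libraries was made with a NEBNext Ultra kit from Trizol extracts, per the labels' protocols. The table that the authors deposited holds raw counts of reads for each gene, FPKM values, group means as a signal on the scale of normalized counts, and their own log2 fold changes and p-values. Bowtie 0.12.2 appears in the submitters' processing notes, with mm8 and mm10 as builds and no role for either. No source used here gives the read counter or the tool behind the authors' comparison. Coordinates of 38 of the 39 members equal those of GENCODE M21 on mm10, and the other is given as deposited. The deposited FPKM matched counts over gene length and a size-factor library size (ratio 1 in all libraries). Gene lengths are as deposited.

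Counts were filtered with filterByExpr, scaled by TMM and fitted with edgeR 4.0.16 (R 4.3.3, robust quasi-likelihood) with group as the only term and all 6 libraries. The adjusted p is Benjamini-Hochberg over 14873 genes, called under 0.05, and is edgeR's wherever no other tool is named. SE is |log2 fold change|/√F. CPM are TMM-scaled, errors of means are SDs, and intervals and floors cover counting error only. The fit was tested on simulated data. Alternatives used DESeq2 1.42.0, limma 3.58.1, other scalings and filters, a length correction (lowess, span 0.3), a replicate block and leaving out each library. Every member past the test is named, as are the member with the smallest p in a complex with none, the highest and lowest FPKM, and up to 3 genes per pathway list. Other members were named after their values were seen. The members and lists were chosen with earlier results of these data known. In the table, 1 of 14 hepatocyte markers and 1 of 31 other assembly factors were not matched by symbol.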

Additional observations from a re-analysis of the deposited data

How the results depend on the processing

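The count of members higher in XCKO, 10, was 6 with scaling by library totals alone, where 1 member was lower instead of 0 and the median log2 fold change was 0.20 instead of 0.47. With 1 library left out, the count ran from 2 to 8, the count of lower members stayed 0 and the median ran from 0.44 to 0.62. Same-numbered libraries of the groups had correlations of 0.055, 0.076 and −0.168 in their deviations. With 3 libraries per group these values cannot tell whether the numbers pair the libraries, and the labels do not say. With the replicate block the count was 3 (8.33% of members, beside 1.48% of all tested genes). With the length correction and the replicate block it was 2 (5.56%, beside 0.847%). Fewer libraries or residual degrees of freedom remain in these fits. In the other 9 settings the count was 9 to 14 and none was lower. As shares, 25% to 38.9% of the tested members were higher there, beside 4.42% to 9.51% of all tested genes. Both shares were largest with DESeq2. Lyrm7, which never passed, had a log2 fold change of −0.05 without XCKO replicate 3 and 0.60 without XCKO replicate 1. Xbp1 passed in every setting, from −2.00 to −2.53. Members with few reads limit what these fits can show. Lyrm7 had at most 49 reads in a library and Sco2 had none. Cox20, at 1 to 10 reads, was tested only with no filter and without XCON 1 or XCON 2. Most exonic bases of Sco2 and Cox20 are shared with other genes, so low expression cannot be told apart from how shared reads were counted. The cause of these changes was not tested.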

Other observations

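Many assembly factor genes start next to another gene read in the opposite direction. Of the 36 tested members, 12 had a protein-coding gene on the other strand whose start lay within 1000 bases (33.3%), beside 15.4% of 12983 tested protein-coding genes. Of the 11 such neighbours that were tested, 1 was higher in XCKO and 0 were lower, beside 5.21% and 4.05% of all tested genes. The neighbours' median log2 fold change was 0.01, beside −0.05 over all tested genes. The 1 called neighbour was Unc50, at 0.52 ± 0.13 (SE) with an adjusted p of 0.038, the neighbour of Coa5 at 36 bases, whereas Coa5 itself did not pass at 0.16. Ndufaf8 rose by 1.17 on the log2 scale and its neighbour Tepsin, 197 bases away, had −0.18 ± 0.24 (SE) and an adjusted p of 0.65. Surf2, the neighbour of Surf1, had −0.26 ± 0.24 (SE) and an adjusted p of 0.49. Over the 11 tested neighbours, values ran from −0.56 ± 0.25 for Zfp142, beside Bcs1l, to 0.64 ± 0.23 for Zswim7, beside Ttc19 (SE). The difference between a member and its neighbour was not tested.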
